A study of Mus musculus with 14 samples.

Results

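The genes described here encode the enzymes that build and remodel cardiolipin, and they were followed in subcutaneous white adipose tissue of running and sedentary mice. They are the 8 genes Cds1, Cds2, Tamm41, Pgs1, Ptpmt1, Crls1, Taz and Lclat1, chosen by name, out of 18193 genes with a symbol on the array. All probe sets that the platform annotation assigns to these symbols were taken, 20 of 45101, and for each gene the brightest probe set, by its mean over the 14 arrays, stands for the gene. All 8 genes passed the filter on low signal in that probe set, as did 19 of the 20 probe sets, the exception being the second probe set of Taz.

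Messenger RNA was measured on 14 arrays of total RNA from this fat depot of male C57BL/6 mice, an inbred strain, aged 12 weeks. The exercised group (7 arrays) came from mice given wheel cages, where running is voluntary, for 11 days, and the sedentary group (7 arrays) from mice labelled with the same 11 days. No transgene, diet or drug is named in the labels. Nothing in the labels ties an array to its own animal, and p-values therefore reflect only how far these samples vary, a variation that may be technical. The tissue is a whole depot, so fewer cells of a type and less RNA per cell cannot be told apart in any of the values below.

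Cardiolipin is the signature phospholipid of the inner mitochondrial membrane, where it carries 4 acyl chains and holds respiratory chain complexes and carriers in place. Its synthesis starts from phosphatidic acid, which a CDP-diacylglycerol synthase activates with CTP. Phosphatidylglycerophosphate synthase then adds glycerol 3-phosphate, a phosphatase removes the phosphate to leave phosphatidylglycerol, and cardiolipin synthase joins phosphatidylglycerol to another CDP-diacylglycerol. The new molecule is remodelled by removal and replacement of acyl chains, and brown adipocytes, which are rich in mitochondria, depend on cardiolipin for heat production.

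Of the 8 genes, Crls1, which encodes cardiolipin synthase and so the last step of synthesis, rose in exercised tissue, by 57% on average, a call that was lost when certain arrays were left out. The other 7 did not pass the threshold of the test. Among them Cds1, Tamm41 and Ptpmt1 had higher means in exercised tissue, Cds2, Taz and Lclat1 had differences under 0.1 on the log2 scale, and Pgs1 had a lower mean by its main probe set. The test was limma over all 12944 genes that passed the filter, on log2 of the signal plus a constant, with Benjamini-Hochberg adjustment and a threshold of 0.05. The 1 call is to be read against 5.53% of all genes tested that passed in either direction, 4% upwards and 1.53% downwards. With the filter on low signal removed, Crls1 was still called, among 3.25% of 18193 genes. By the main probe sets, 0 of the 8 had groups without overlap, where 2.68% of all genes did. At an unadjusted p under 0.05 there were 4 of the 8 genes, Crls1, Cds1 and Tamm41 upwards and Pgs1 downwards, where 21.8% of all genes were. The median log2 difference of the 8 was 0.15, where that of all genes tested was -0.03. Positive differences made up 7 of the 8, where 45% of all genes had a higher mean in exercised tissue. The 8 genes were chosen with earlier results of these data known, so these shares describe them and are no test.

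**Figure D1:**
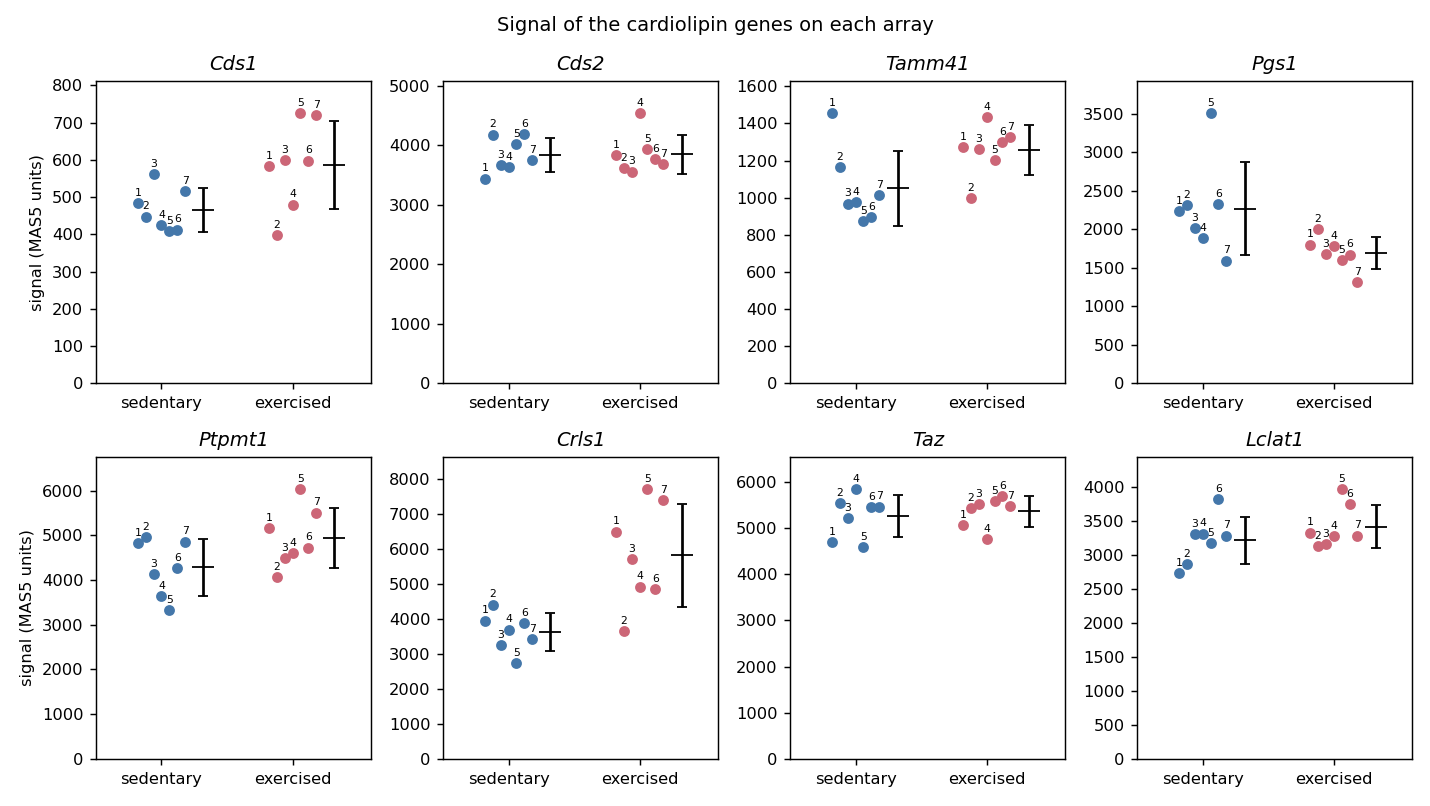
Signal of the 8 genes on each array in MAS5 units (linear axes from 0), with sedentary arrays in blue, exercised arrays in red, replicate numbers above the points, and mean ± SD (n = 7) as a bar beside each group. For Crls1, 6 of the 7 exercised arrays lie above every sedentary array, while for Cds2, Taz and Lclat1 the groups lie over each other.

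Most arrays were alike in their general properties, and some differed in their cell type markers. Array medians lay between 531.3 and 617.4 signal units, and the log2 values of any 2 arrays correlated at 0.90 to 0.97. Mature adipocyte markers were strong on every array, with a summed signal of 267707 to 413829 in sedentary and 340025 to 420247 in exercised tissue. The lowest mean of these markers was that of sedentary array 5 (14.09 on the log2 scale, where the sedentary mean was 14.92 ± 0.41), and the same array had the highest mean of the macrophage markers (13.63, sedentary mean 12.88 ± 0.42). Brown and beige adipocyte markers rose in 4 of 7 genes, led by Ucp1, the uncoupling protein that releases heat, from 2380 ± 3406 to 34906 ± 13885 signal units (SD, n = 7 each). Exercised array 2 was the lowest of its group for these markers (11.76) and for 47 nuclear-encoded respiratory chain genes (14.16). Sedentary array 7 was the lowest of its group for the brown and beige markers (9.13, sedentary mean 10.72 ± 0.78). It was also the highest of all arrays for the epithelial markers (10.32, sedentary mean 8.87 ± 0.66). Skeletal muscle markers had positive differences in 20 of 20 genes, none past the threshold and none at 0, with a summed signal of 11042 to 319633 in sedentary and 13878 to 853016 in exercised tissue. Of the other lists, lymphocyte markers passed in 0 of 8 genes (median log2 difference -0.65). Exercised arrays 5 and 7 and sedentary array 7 lay far below the rest for them. Endothelial markers passed in 0 of 6 (median -0.01) and macrophage markers in 1 of 10 (median -0.37, with Tyrobp lower). Epithelial markers passed in 1 of 6 (median -0.14), with Epcam lower. Their differences were split, 3 positive and 3 negative, and ran from -0.57 to 0.90.

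Crls1 gave the clearest difference of the set. Its main probe set, 1429737_a_at, read 2743.2 at the lowest, 3688.6 at the median and 4403.1 at the highest on sedentary arrays. On exercised arrays the lowest value was 3653.7, the median 5701.9 and the highest 7700.2. Thus 6 of the 7 exercised arrays were above the whole sedentary range, and exercised array 2 was within it. The group means were 3618 ± 539 and 5811 ± 1465 signal units (SD, n = 7 each), a log2 difference of 0.65 (SE 0.15, 95% interval 0.32 to 0.98, limma adjusted p = 0.0242). The call was lost without exercised array 1 (0.62, adjusted p = 0.0537), 5 (0.58, adjusted p = 0.0522) or 7 (0.59, adjusted p = 0.0558), and without sedentary arrays 5 and 7 together (0.56, adjusted p = 0.0594), with limma in each case. It was lost as well with the Gapdh 3' to 5' signal ratio (0.66, adjusted p = 0.0577) or the muscle markers as a covariate. With the replicate number as a block in the fit it was also lost (0.65, SE 0.18, limma adjusted p = 0.113). In all the call held in 20 of 27 alternative settings, in which the difference lay between 0.55 and 0.75 and the adjusted p between 0.00491 and 0.113.

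The second probe set of Crls1, 1431930_x_at, separated the groups fully. It read 2268.9 at the lowest, 3274.8 at the median and 3819.3 at the highest on sedentary arrays. On exercised arrays it read 4001.4, 4833.8 and 5317.8. All 7 exercised values were above all 7 sedentary values, which was so for 1.48% of the 27022 probe sets tested. The log2 difference was 0.55 (SE 0.11, limma adjusted p = 0.00954 over all probe sets), and it stayed past the threshold in 25 of 26 alternative settings (adjusted p 0.00432 to 0.0701). In the same fits over all probe sets the main probe set was past it in 17 of 26 (adjusted p 0.00553 to 0.125). The suffix of this probe set marks probes that can bind other transcripts with similar sequence, and the suffix of the main probe set marks probes shared by transcripts of a single gene. These were the only 2 of the 19 member probe sets tested that passed, where 3.83% of all probe sets did, 2.78% upwards.

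The RefSeq promoter table (assembly GRCm38.p6) holds 2 windows for Crls1, each from 250 bases before to 50 bases after a transcript start. The window of the more upstream start, chr2:132846416-132846715 on the + strand, is shown because Crls1 is the gene that rose. Letters in capitals are matches, on either strand, to any of the motifs searched: the NRF1 motif, in which GCGC and TGCGC stand on either side of any single base, the half-site AAGGTCA of estrogen-related receptors, the cyclic AMP response element TGACGTCA, the E-box CACGTG of clock factors and other helix-loop-helix proteins, and the ETS motif CCGGAAG.

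Crls1: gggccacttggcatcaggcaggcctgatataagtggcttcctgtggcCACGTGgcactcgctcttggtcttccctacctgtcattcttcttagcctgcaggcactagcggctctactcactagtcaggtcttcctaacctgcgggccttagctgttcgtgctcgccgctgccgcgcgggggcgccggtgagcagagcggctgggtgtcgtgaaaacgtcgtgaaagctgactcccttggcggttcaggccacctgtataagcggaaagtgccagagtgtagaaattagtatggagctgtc

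The match in it is an E-box at bases -203 to -198, counted from the transcript start as 0, a motif that 7.15% of all 32851 promoter windows hold. The other Crls1 window, chr2:132847484-132847783 on the + strand, has no match to these letters. A match describes the sequence and is no evidence of binding.

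On its main probe set, Crls1 broadly followed the level of the respiratory chain from sample to sample. The 3 exercised arrays with the highest Crls1 signal, 5, 7 and 1, were also the 3 with the highest mean of the respiratory chain genes (14.60, 14.62 and 14.54 on the log2 scale). The lowest Crls1 value of each group was on the array with the lowest respiratory chain mean of that group, exercised array 2 (14.16) and sedentary array 5 (13.56). The order was not strict: sedentary array 3 read 3246.8 at a respiratory chain mean of 13.97, and sedentary array 4 read 3688.6 at 13.86. On the second probe set sedentary array 5 was again the lowest and exercised array 7 the highest, but the lowest exercised array was 6 (4001.4). Exercised array 4, with a respiratory chain mean of 14.27, read 5143 there, above exercised array 5 (4833.8). After each group's mean was removed, the genes most like Crls1 over the 14 arrays were Agpat3, which acylates lysophosphatidic acid (Pearson r = 0.947, Spearman rho 0.925), Ndufa6, a subunit of complex I (r = 0.927), and Suclg2, a subunit of succinyl-CoA ligase in the tricarboxylic acid cycle (r = 0.923). Without the 2 arrays farthest from the median of Crls1, exercised arrays 2 and 5, these coefficients were 0.908, 0.897 and 0.929. They are the highest 3 among all other genes tested and are given as a description, since all points of an array share its RNA and scaling.

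**Figure D2:**
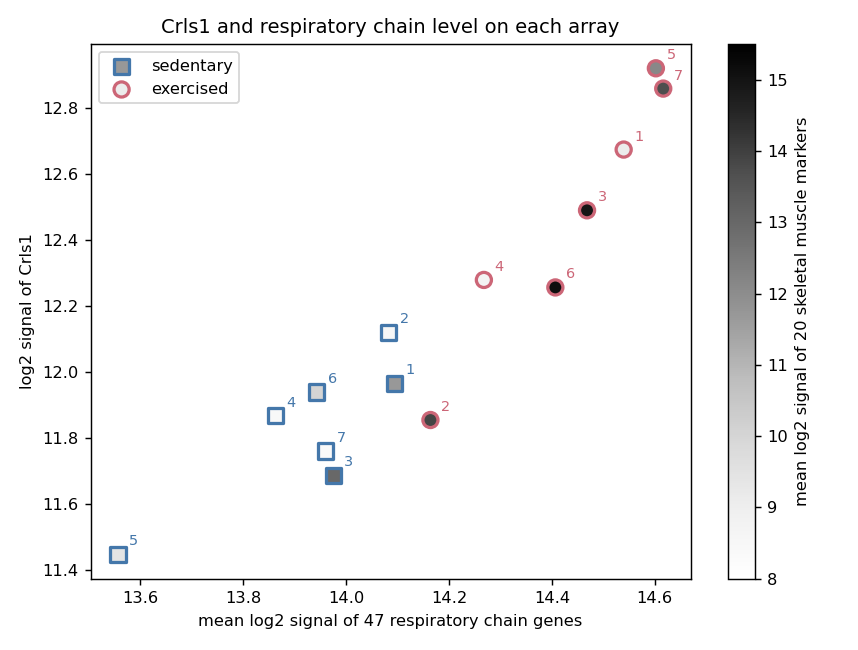
Log2 signal of the main Crls1 probe set (vertical axis) against the mean log2 signal of 47 respiratory chain genes (horizontal axis). The 14 arrays are squares (sedentary) or circles (exercised), numbered by replicate and shaded by the mean log2 signal of 20 skeletal muscle markers. Exercised arrays 1 and 4, which are pale, and 3, 6 and 7, which are dark, lie above all sedentary arrays in Crls1, and exercised array 2, also dark, lies among them.

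Muscle RNA differed widely between samples. The mean of the muscle markers was low on exercised arrays 1 and 4 (9.09 and 8.77 on the log2 scale, in the lower part of the sedentary range of 8.39 to 12.98), and Crls1 read 6484.2 and 4919.7 there, above every sedentary array. It was high on exercised arrays 3, 6 and 7 (14.92, 15.14 and 13.70), and Crls1 was above every sedentary array there too (5701.9, 4842.1 and 7377). Exercised array 5 (12.11), with the highest Crls1 signal on the main probe set, lay within the sedentary range of the muscle markers. On exercised array 2, with a muscle mean of 13.90, Crls1 read 3653.7. With the muscle markers as a covariate the difference of the main probe set was 0.71 (SE 0.18, limma adjusted p = 0.0706), as large as without it but no longer past the threshold. That of the second was 0.61 (SE 0.13, limma adjusted p = 0.0364).

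Lymphocyte markers also set some arrays apart. Their mean was 8.47 and 9.73 on the log2 scale on exercised arrays 5 and 7 and 8.78 on sedentary array 7, where the other 11 arrays lay between 11.41 and 12.92. Exercised arrays 5 and 7 had the highest Crls1 signal on the main probe set, and sedentary array 5, with the most lymphocyte signal (12.92), had the lowest. Sedentary array 7 read 3420.8, the third lowest of its group. Without the 3 arrays low in lymphocyte markers (5 exercised and 6 sedentary arrays left), a comparison chosen after seeing the data, the difference of the main probe set was 0.47 (SE 0.15, limma adjusted p = 0.124). That of the second was 0.50 (SE 0.13, limma adjusted p = 0.0768), so neither passed the threshold. On these 11 arrays 217 genes were called in all, where 716 were called on the 14. The part of lymphocyte RNA in the Crls1 result was not tested.

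Cds1 and Cds2 encode the CDP-diacylglycerol synthases of the endoplasmic reticulum, which feed phosphatidylinositol synthesis. Cds1 read 408.4 to 562.7 (median 447.5) on sedentary and 397.6 to 724.8 (median 597.7) on exercised arrays. The groups overlapped, although 5 of the 7 exercised arrays were above the whole sedentary range. Its mean signal of 526 units lay close to the filter, at 389.8, so it is a weak signal. The log2 difference was 0.29 (SE 0.14, 95% interval 0.0014 to 0.58, limma adjusted p = 0.226), and its other probe set gave 0.16 (SE 0.18). Cds2 read 3444 to 4188 (median 3757.6) and 3558.7 to 4539.3 (median 3764.1). These ranges lie over each other, and the log2 difference was 0.0013 (SE 0.07), with a 95% interval of -0.15 to 0.15. Its 5 other probe sets differed by -0.15 to 0.07, none past the threshold.

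Tamm41 encodes the CDP-diacylglycerol synthase of mitochondria, the entry enzyme of the cardiolipin pathway itself. It read 873 at the lowest, 975.8 at the median and 1454.1 at the highest on sedentary arrays. On exercised arrays it read 996.6, 1272.7 and 1432.7. All 7 exercised arrays were above the sedentary median, but sedentary array 1 had the highest value of all 14. The log2 difference was 0.26 (SE 0.11, 95% interval 0.02 to 0.50, limma adjusted p = 0.193), and the other probe set gave 0.27 (SE 0.14). Over the 27 settings the difference stayed positive, between 0.21 and 0.34, and the adjusted p stayed above the threshold (0.0624 to 0.399).

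Pgs1 encodes phosphatidylglycerophosphate synthase, the committed step of the pathway, and its probe sets disagreed. The main probe set, 1454046_x_at, read 1594.7 to 3506.7 (median 2234.9) on sedentary and 1315 to 2003.4 (median 1682.1) on exercised arrays. All 7 exercised values were below the sedentary median, while sedentary array 5 stood at 3506.7 and the next sedentary value was 2328.6. The log2 difference was -0.38 (SE 0.14, 95% interval -0.68 to -0.08, limma adjusted p = 0.129), and without sedentary array 5 it was -0.27 (SE 0.11, adjusted p = 0.167). Probe sets 1454045_a_at and 1455229_x_at gave -0.35 (SE 0.17) and -0.51 (SE 0.20). Sedentary array 5 was the highest of all arrays on both of these as well, at 3445 and 3129.6, and it was the array with the most macrophage marker signal (mean 13.63 on the log2 scale), whose part in this difference was not tested. Probe set 1430429_at went the other way, with medians of 1546.9 in sedentary and 1906 in exercised tissue and a difference of 0.32 (SE 0.15, limma adjusted p = 0.248). None of the 4 passed the threshold in any of the 26 settings tried on them, and the mean of all 4 probe sets differed by -0.23 (SE 0.11, limma adjusted p = 0.244). The signs did not change under these settings.

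**Figure D3:**
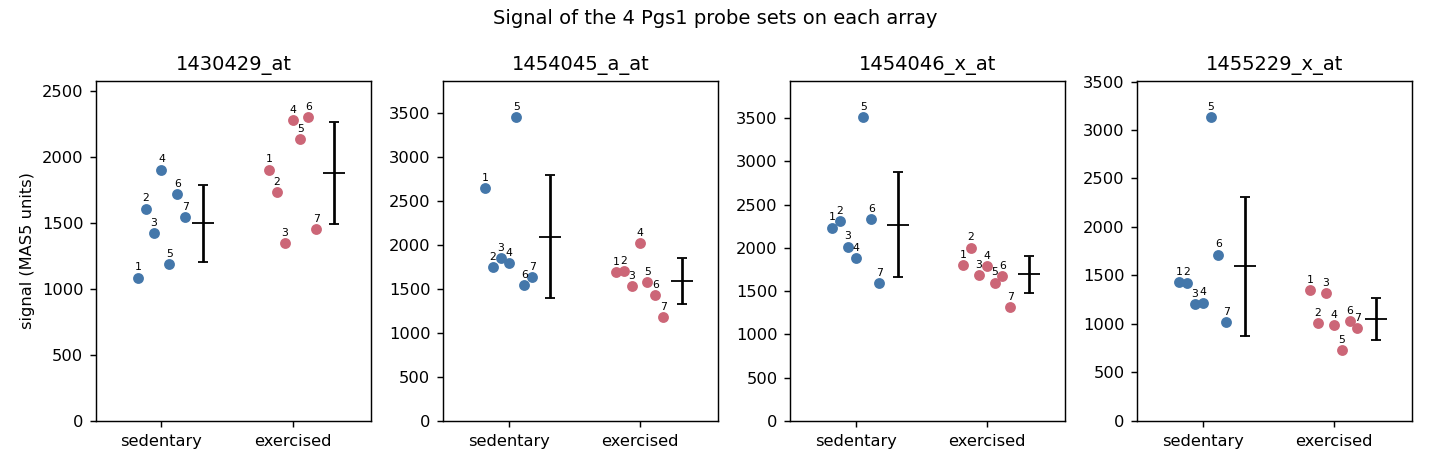
Signal of the 4 probe sets of Pgs1 on each array in MAS5 units (linear axes from 0), drawn as in the plot of all 8 genes, with mean ± SD (n = 7). Sedentary array 5 is the highest point for 3 probe sets and the second lowest sedentary point for 1430429_at, at 1188.

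The promoter window of Pgs1, chr11:117986607-117986906 on the + strand, is shown because the difference of this gene had the opposite sign to that of Crls1 on 3 of its 4 probe sets. Of those 3, the main probe set and 1455229_x_at carry the suffix for probes that can bind other transcripts, and 1430429_at, the only one of the 4 with neither that suffix nor the one for shared transcripts, had the positive difference.

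Pgs1: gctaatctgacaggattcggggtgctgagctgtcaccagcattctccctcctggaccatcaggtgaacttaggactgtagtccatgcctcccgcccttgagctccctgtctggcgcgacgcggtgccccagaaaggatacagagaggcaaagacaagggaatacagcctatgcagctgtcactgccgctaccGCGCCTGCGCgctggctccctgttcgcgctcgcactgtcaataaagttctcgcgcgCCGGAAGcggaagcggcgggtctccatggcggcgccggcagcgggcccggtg

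Its matches, in capitals, are an NRF1 motif at bases -58 to -49, which 4.6% of all promoter windows hold, and an ETS motif across the start, which 8.86% hold. NRF1 and the ETS factor GABPA are known as regulators of nuclear genes for mitochondrial proteins.

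Ptpmt1 encodes the mitochondrial phosphatase that turns phosphatidylglycerophosphate into phosphatidylglycerol. It read 3333.8 at the lowest, 4272.1 at the median and 4957.5 at the highest on sedentary arrays, and 4072.4, 4725 and 6033.5 on exercised arrays. The groups overlapped, with 3 exercised arrays above the sedentary range and 2 sedentary arrays below the exercised range. The log2 difference was 0.21 (SE 0.11, 95% interval -0.02 to 0.44, limma adjusted p = 0.278). Although it did not pass the test, Ptpmt1 varied with Crls1 between arrays of a group (Pearson r = 0.80 over 14 arrays after group means were removed), the highest coefficient among the 28 pairs of the 8 genes. The 28 coefficients had a median of 0.10 and ran from -0.60, for Cds1 with Pgs1, upwards. The genes most like Ptpmt1 were Ccdc90b, which encodes a mitochondrial protein (r = 0.945), the small GTPase gene Arl2 (r = 0.938) and Mrpl2, of the mitochondrial ribosome (r = 0.935). Without sedentary array 5 and exercised array 5 these were 0.935, 0.908 and 0.898.

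The promoter window of Ptpmt1, chr2:90918001-90918300 on the - strand, is shown beside that of Crls1 because these genes were the most alike of the set.

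Ptpmt1: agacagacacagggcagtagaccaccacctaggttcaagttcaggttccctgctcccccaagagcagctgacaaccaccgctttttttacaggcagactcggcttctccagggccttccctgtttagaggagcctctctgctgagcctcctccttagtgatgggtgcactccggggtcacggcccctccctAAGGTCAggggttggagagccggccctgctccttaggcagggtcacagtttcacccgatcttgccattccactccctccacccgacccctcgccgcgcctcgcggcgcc

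Its match is the half-site of estrogen-related receptors, at bases -59 to -53, which 4.72% of all windows hold. No motif searched was shared by the windows of Crls1 and Ptpmt1. Of the other members, the window of Cds1 held the cyclic AMP response element (1.79% of all windows), 1 of the 2 windows of Cds2 held the NRF1 motif, and those of Taz and Lclat1 held none of these letters. Windows were found for 7 of the 8 genes, and Tamm41 is not in the table used.

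Taz and Lclat1 act after synthesis, in remodelling. Taz encodes tafazzin, the transacylase that gives cardiolipin its mature acyl chains and whose loss in humans causes Barth syndrome. It read 4592.1 to 5844.4 (median 5456.3) on sedentary and 4763.7 to 5687.2 (median 5474.5) on exercised arrays. The exercised values lay wholly within the sedentary range. The log2 difference was 0.03 (SE 0.07), and the 95% interval of -0.12 to 0.18 excludes a change as large as that of Crls1. Lclat1 encodes an acyltransferase of lysocardiolipin at the endoplasmic reticulum and mitochondria-associated membranes. It read 2736.9 to 3821.1 (median 3287.3) on sedentary and 3135.4 to 3973.4 (median 3289.9) on exercised arrays, with nearly equal medians and a log2 difference of 0.09 (SE 0.08, 95% interval -0.09 to 0.26). The genes most like Taz after group means were removed were D930003E18Rik (r = 0.909), Pheta1 (r = 0.869) and Kiss1r (r = 0.864), of which the last had a Spearman rho of 0.679. No gene of the respiratory chain was among these 3, nor among the 3 most like Ptpmt1. So short a list cannot show that a relation is absent.

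**Figure D4:**
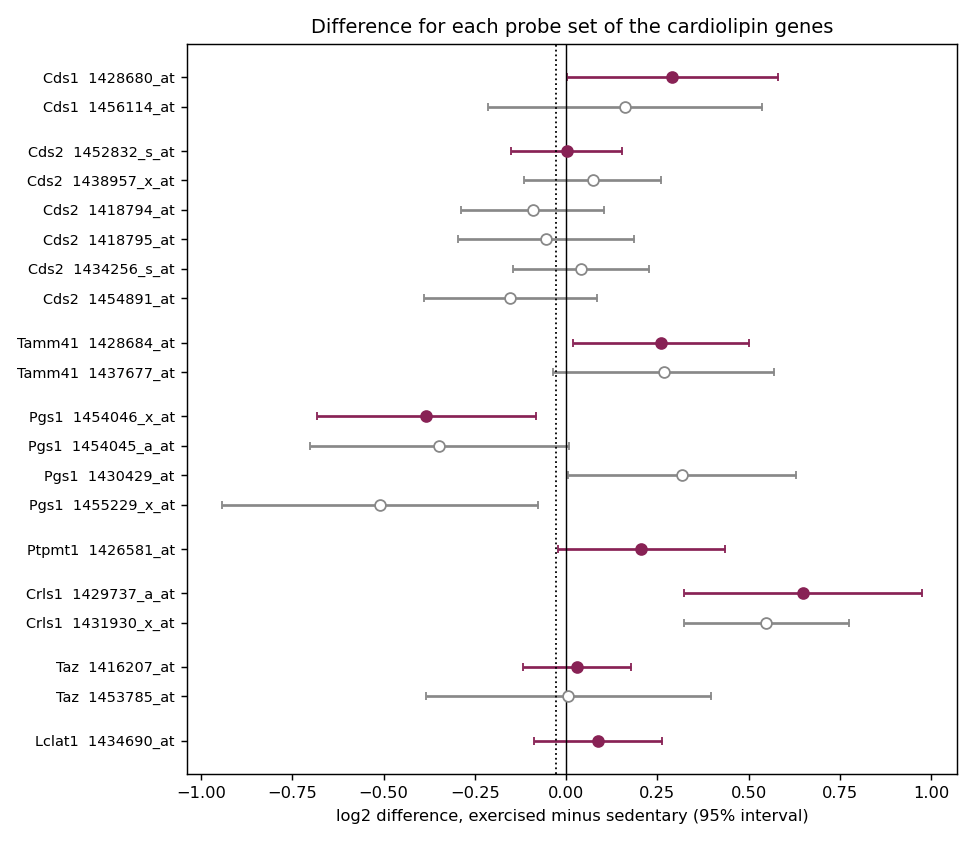
Log2 difference (exercised minus sedentary) with its 95% interval for all 20 probe sets of the 8 genes, filled where the probe set represents the gene, with a dotted line at the median of all genes tested (-0.03). Both Crls1 probe sets lie to the right, at 0.65 and 0.55, while the 4 Pgs1 probe sets fall on both sides of 0.

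Because most respiratory chain genes rose, each gene's change was also tested against theirs. Of the 47 respiratory chain genes tested, which encode subunits of complexes I to IV, 43 rose, with a median log2 difference of 0.52. In a limma fit on log2 values minus each array's mean of those genes, Crls1 differed by 0.14 (SE 0.10, 95% interval -0.09 to 0.36, limma adjusted p = 0.231), so its change was not told apart from theirs. The other 7 had negative values, and 5 of the 8 were lower than the respiratory chain mean past the threshold: Pgs1 (-0.90), Cds2 (-0.51), Taz (-0.48), Lclat1 (-0.42) and Ptpmt1 (-0.31), with limma adjusted p between 0.0014 and 0.00715. Of all genes 77.4% passed in this fit and 76.5% were lower, so the members' share is near the background. Tamm41 (-0.25, SE 0.12, limma adjusted p = 0.0558) and Cds1 (-0.22, SE 0.13, limma adjusted p = 0.114) did not pass. The 5 genes that passed did so in all 27 alternative settings. For Pgs1 these values rest on the main probe set or on the mean of its probe sets. Its probe set 1430429_at, higher by 0.32 in exercised tissue, was not set against the respiratory chain on its own.

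Around these 8 genes stand others that supply the substrate, move the lipids, replace acyl chains of cardiolipin or take it apart. Of 30 such genes listed, 28 had a symbol on the array and 27 passed the filter. Of the 27, 6 rose and 0 fell, or 22.2%, where 5.53% of all genes passed, and at an unadjusted p under 0.05 there were 11, where 21.8% of all genes were. The median log2 difference of the 27 was 0.13. The lists were chosen with earlier results of these data known, so these shares describe them and are no test. Against the respiratory chain mean, Hadha (0.46, limma adjusted p = 0.00544) and Hadhb (0.27, limma adjusted p = 0.0054) were higher past the threshold. Phb2 was lower (-0.26, limma adjusted p = 0.00968), and Gpam, Prelid3b and Pnpla8 did not pass.

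In the list for phosphatidic acid supply and lipid transfer 2 of 11 genes rose. The listed carrier of phosphatidic acid, Prelid1, was not among them. Prelid3b, a carrier of phospholipids between the mitochondrial membranes, rose from 2013 ± 451 to 3070 ± 457 signal units (SD, n = 7 each; log2 difference 0.61, SE 0.14, limma adjusted p = 0.0177), a call that held in 24 of 27 settings (adjusted p 0.00875 to 0.129). Gpam, the mitochondrial glycerol 3-phosphate acyltransferase that starts glycerolipid synthesis, rose from 16385 ± 6882 to 26534 ± 5067 (0.75, SE 0.20, limma adjusted p = 0.0358), but its other probe set gave 0.17 (SE 0.13), and the call held in 13 of 27 settings (adjusted p 0.00244 to 0.131). Prelid1, which carries phosphatidic acid to the inner membrane, had a difference of -0.21 (SE 0.10, limma adjusted p = 0.213), and its partner Triap1 one of -0.14. The other Prelid1 probe sets tested gave -0.18, -0.23 and -0.29, the last with limma adjusted p = 0.0507, so none passed. Agpat3, the gene most like Crls1 between arrays, differed by 0.32 (SE 0.10, limma adjusted p = 0.0768).

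Among genes listed under cardiolipin turnover and deacylation 3 of the 5 tested rose, and of these only Pnpla8 is described as removing acyl chains. Hadha and Hadhb encode the subunits of the trifunctional protein of fatty acid oxidation, of which the Hadha product has also been described to acylate monolysocardiolipin. Hadha rose from 8604 ± 1569 to 17194 ± 4016 signal units (0.98, SE 0.16, limma adjusted p = 0.00329). Hadhb rose from 29466 ± 4651 to 50451 ± 6663 (0.78, SE 0.11, limma adjusted p = 0.002), with all 7 exercised values above all 7 sedentary ones, which was so for 1.95% of genes. Both passed in all 27 settings. Of the other probe sets of Hadhb, 1426522_at gave 0.89 (SE 0.14) and 1442732_at 0.17 (SE 0.15). Pnpla8, a phospholipase that removes acyl chains from mitochondrial phospholipids, rose by 0.36 (SE 0.10, limma adjusted p = 0.0442), a call that held in 8 of 27 settings (adjusted p 0.0246 to 0.298), and its other probe set gave 0.13 (SE 0.21). Pla2g6 and Abhd18 had differences of 0.21 and 0.22 and did not pass, and Pld6 fell under the filter.

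Of the genes for transfer of cardiolipin and for membrane scaffolds that hold it, 1 of 4 rose, Phb2, a prohibitin of the inner membrane (0.25, SE 0.06, limma adjusted p = 0.0296, past the threshold in 17 of 27 settings). Its probe set 1438938_x_at gave 0.62 (limma adjusted p = 0.0283), and 2 others did not pass. Plscr3, a scramblase of mitochondria, differed by -0.02 on its main probe set and by -0.34 on 1431081_a_at (SE 0.09, limma adjusted p = 0.038). In the other branches of phospholipid synthesis, which make phosphatidylinositol, phosphatidylserine and phosphatidylethanolamine, limma called 0 of 7 genes and 2 of 7 were past an unadjusted p of 0.05, a share close to the 21.8% of all genes. The smallest p was that of Ptdss2, a phosphatidylserine synthase (0.42, SE 0.15, limma adjusted p = 0.11). Pisd, which makes phosphatidylethanolamine inside mitochondria, differed by -0.01 (SE 0.08). The count of 6 pathway genes fell to 3 without sedentary array 3, 4 or 6 or exercised array 1, 3, 5 or 7, and to 2 with the muscle markers or the Gapdh ratio as a covariate, when only Hadha and Hadhb were called. Without the 3 arrays low in lymphocyte markers it was 3 (Gpam, Hadha and Hadhb).

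**Figure D5:**
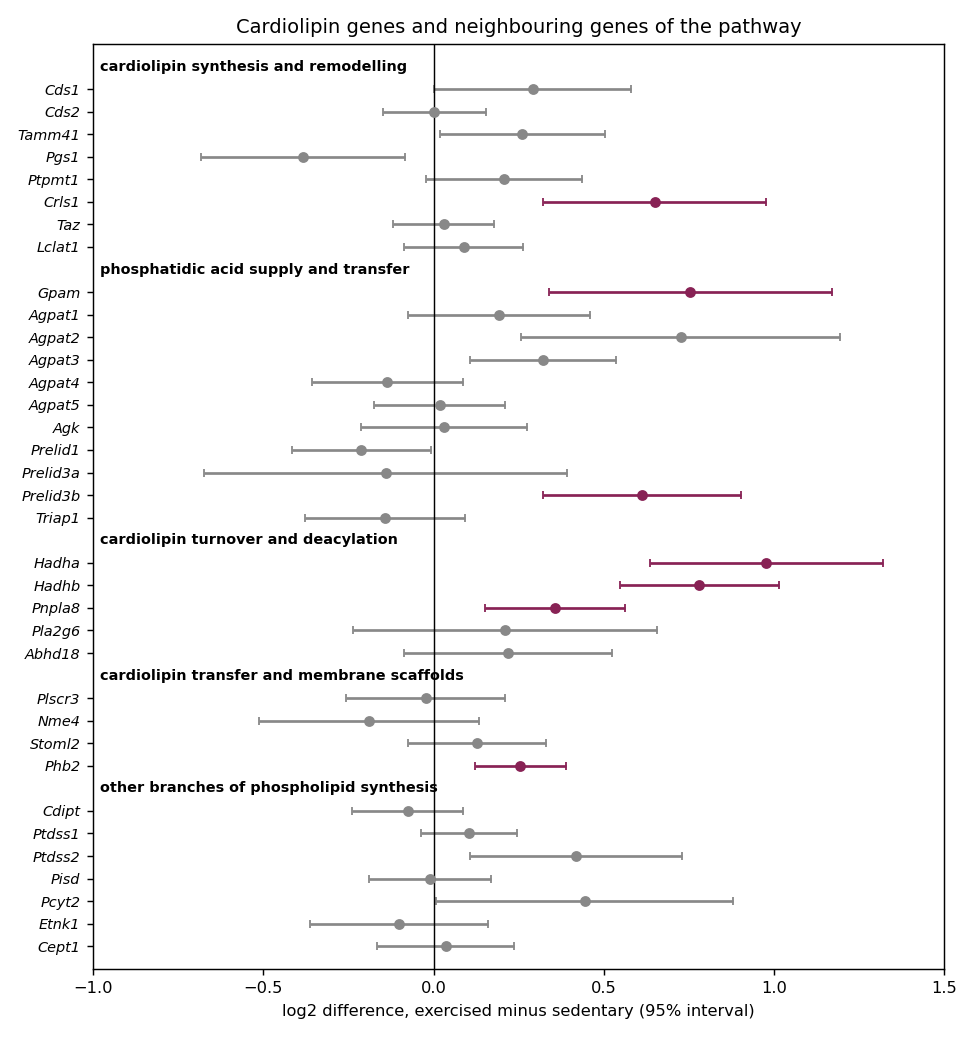
Log2 difference (exercised minus sedentary) with its 95% interval for the 8 cardiolipin genes and the 27 neighbouring genes tested, grouped by list, in purple where limma's adjusted p was under 0.05 and grey otherwise. The purple points are Crls1 and the 6 pathway genes from Phb2 (0.25) to Hadha (0.98), all to the right of 0.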

How the data were processed

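Each deposited table gives an intensity per probe set, not on a log scale, for which the submitters' processing notes name MAS5 as the authors' software. The sources used here name neither its version nor its settings. Tested on the values, the mean after trimming 2% at each end was 1500 signal units on every array, so arrays share 1 scale and differences in total RNA per cell are removed. The number of arrays limits precision.

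Groups and replicate numbers came from the titles. Values were transformed as log2(signal + 46.7), the 10th percentile of all values, so folds understate changes of weak genes. The 64 control probe sets and those with a mean under 389.8 (the 40th percentile) were left out. Controls aside, 34945 probe sets had 1 symbol, 932 several and 9160 none in the table used, and only the first entered gene tests. Symbols were updated through Entrez identifiers (34741 matched a table of GRCm38.p6). The 7 arrays of each group entered limma 3.58.1 (R 4.3.3, eBayes with trend, two-sided), after the script was tested on simulated data.

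The members and lists were chosen with earlier results of these data known, and the motifs with the promoter sequences in view. Genes named were all members, up to 4 called genes of each pathway list (or that with the smallest p), the 3 genes most like Crls1, Ptpmt1 and Taz, and Ucp1; others of the pathway lists, Epcam and Tyrobp were named after their values were seen. Alternatives changed the normalisation, pseudocount, filter, probe set rule, variance model, weights, block, covariates and arrays. Running the Crls1 and Pgs1 probe sets singly under them, and leaving out the 3 arrays lowest in lymphocyte markers, were chosen after seeing the data, and the latter is not among the 27 settings counted.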

Additional observations from a re-analysis of the deposited data

Results flagged for a closer look

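Within groups of 7 arrays, a sample was picked out where its gap to the nearest value exceeded, as a share of the group's range on the log2 scale, Dixon's 95% critical value. Of 56 groups screened, 4 were picked out, and chance gives about 5% of them. On the second Crls1 probe set, sedentary array 5 was low at 2268.9, the next value being 3130.6 (ratio 0.617); without it the difference was 0.47 (SE 0.08, limma adjusted p = 0.00561). For Cds2, exercised array 4 was high at 4539.3, the next being 3935.8 (ratio 0.587). For the second Taz probe set, which lay under the filter, sedentary array 6 was low at 106.8 against 178.8 (ratio 0.582). For Ucp1, exercised array 2 was low at 10273.2 against 26461.2 (ratio 0.584). The same array was lowest of its group on the main Crls1 probe set, but not on the second. The cause was not tested.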

How the results depend on the processing

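The count of 1 cardiolipin gene called (Crls1) became 0 with the replicate block, the muscle markers or the Gapdh 3' to 5' ratio as covariate, or without sedentary arrays 5 and 7 together, and ran from 0 to 1 when single arrays were left out. With the Gapdh ratio the difference of Crls1 stayed as large (0.66, SE 0.18, limma adjusted p = 0.0577). The count of 6 pathway genes became 3 with the replicate block and 2 with either covariate, and ran from 3 to 7 over the arrays left out; the cause was not tested. Without the 3 arrays low in lymphocyte markers, a setting added after seeing the data and not among the 27, these counts were 0 and 3, and 217 genes were called in all. Under the replicate block Crls1 kept its difference of 0.65 (SE 0.18, limma adjusted p = 0.113), and genes called in all went from 716 to 161. Whether the replicate numbers pair the samples is not given in the labels. Of the same-numbered pairs 3 of 7 deviated together at over 0.1 (-0.43 to 0.38). Among the samples 4 of 14 correlated best with their own number, and these values do not settle whether there is a pairing. Median centring moved the share of calls that were higher from 72.3% to 86.4%, array weights to 61.2%, the block to 84.5% and the muscle covariate to 82.4%, with 1026 genes called under array weights and 222 under the muscle covariate. With the Gapdh ratio 399 genes were called, and without single arrays 402 to 853. The 5 members lower than the respiratory chain and the median member difference (0.10 to 0.18) kept their side in all 27 settings, and the 2 Crls1 probe sets called stayed 2 without the filter. For each of Cds2 and Taz the sign changed in at least 1 setting without a call.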
